A study of Bos taurus with 8 samples.

Results

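The ERK feedback phosphatases and sprouty genes comprised 10 genes: the dual specificity phosphatases DUSP1, DUSP4, DUSP5, DUSP6 and DUSP10, the sprouty genes SPRY1, SPRY2 and SPRY4, and the sprouty-related genes SPRED1 and SPRED2. They were found by their symbols in the annotation of the EmbryoGENE bovine array, where all 10 were present among 15216 named genes, on 16 of 43794 probes. Each gene was represented by its brightest probe, and the 6 other probes were checked against it. The levels were those of granulosa cells scraped from the walls of Holstein dominant follicles larger than 9 mm in slaughterhouse ovaries. The follicles were staged by flow cytometry of the DNA content of these cells, with 4 plateau follicles and 4 growing follicles. The RNA of each follicle was linearly amplified, and each plateau follicle was hybridized against 1 growing follicle on 2 arrays with the dyes exchanged, giving 8 arrays on 2 slides and 4 follicle pairs. The follicles received no treatment that the labels name. The labels name the stage, which the paper assigned from flow cytometry alone.

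ERK is the last kinase of the cascade that runs from receptor tyrosine kinases through RAS, RAF and MEK. Dual specificity phosphatases remove the activating phosphates from ERK and related kinases, and sprouty and SPRED proteins restrain the cascade nearer to RAS and RAF. Many of these genes are themselves induced by ERK, so that they form a negative feedback. In granulosa cells ERK carries signals of EGF-like growth factors after the LH surge, and of other growth factors during follicle growth.

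Ratios were log2 values of plateau over growing, so a positive value is higher in plateau follicles. A level was the mean of the normalized log2 Cy3 and Cy5 values of a follicle, and levels of different genes were not set against each other, since each probe has its own response. A reading was called detected if it was over 2 SD brighter than the average of the 757 negative and dark spots of that array and dye, which held for 56.6% to 79.1% of probes across arrays and dyes. Each slide held 1 dye orientation and both stages, so slide and orientation cannot be told apart. The slides served as batches.

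The follicles differed in their cell type markers before any feedback gene was considered. The median level of 12 granulosa cell markers was 14.07, 9.77, 9.00 and 14.18 in the plateau follicles of pairs 1 to 4, against 11.89, 10.84, 13.33 and 13.14 in the growing follicles. CYP19A1, the aromatase of oestradiol synthesis, had levels of 15.41, 8.06, 8.80 and 15.84 in plateau follicles and 11.92, 8.15, 15.78 and 14.81 in growing follicles. The plateau follicles of pairs 2 and 3 thus had the lowest marker medians of their stage. Both follicles of pair 2 and the plateau follicle of pair 3 were low in CYP19A1. Other granulosa cell markers of the growing follicle of pair 2 were mixed. FSHR was lower there than in any other follicle, at 8.43. AMH, at 11.62, lay within the 9.99 to 12.40 of the other growing follicles. INHA was as high there as in the plateau follicle of pair 1, and no follicle was higher. The median of 12 smooth muscle and fibroblast markers was 8.17, 9.32, 11.78 and 9.00 in plateau follicles and 8.49, 9.87, 8.85 and 8.48 in growing follicles, so it was highest in the plateau follicle of pair 3. Of the granulosa cell markers 3 of 12 had a mean ratio above 0 and 9 below, where 51.1% of named genes were above 0. In pairs 1 to 4, 10, 6, 2 and 10 of these 12 were higher in the plateau follicle. Their levels were also summed on the linear scale, where the brightest markers weigh most. The log2 of this sum ranged over 15.17 to 18.27 in plateau follicles and 16.49 to 18.10 in growing follicles. Of the smooth muscle and fibroblast markers 11 of 12 lay above 0, but by pair 3, 4, 10 and 7 of the 12 were higher in the plateau follicle. The log2 of their sum was 13.22 to 17.69 in plateau follicles and 13.66 to 14.37 in growing follicles. COL1A2, a collagen chain, had a level of 15.88 in the plateau follicle of pair 3, against 9.76 in the growing follicle of the same pair. In bulk samples such as these, fewer cells of a type and less RNA per cell cannot be told apart. Values without pair 3, and without pairs 2 and 3, are therefore given beside the genes whose ratio or call moved with them.

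SPRY1 was the only 1 of the 10 genes to pass the cut used in the study, namely over 1.5-fold either way with an unadjusted p below 0.05, for probes whose log2 intensity averaged 7 or more. This cut, called the criterion here, was passed by 1.03% of the named genes by their brightest probes (0.506% higher in plateau follicles) and by 0.678% of all probes (0.299% higher and 0.379% lower in plateau follicles). No probe passed an adjusted p of 0.05 (limma, Benjamini-Hochberg over all probes), while 1152 probes had an unadjusted p under 0.05, 2.63% of those tested, as had 3.4% of named genes and, of the 10 genes, SPRY1 alone. Among the feedback genes SPRY1 was also the only 1 with the same direction in all 4 pairs, a pattern that 9.06% of named genes had. The levels of the stages overlapped for all 10 genes, and 1.52% of named genes had stages that did not overlap.

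SPRY1 encodes a sprouty protein that restrains growth factor signalling to ERK. Its levels were 10.51, 9.62, 10.93 and 10.53 in the plateau follicles of pairs 1 to 4, against 9.72, 9.46, 10.08 and 9.82 in the growing follicles. In every pair the plateau follicle was higher in the average of its 2 arrays, but the plateau follicle of pair 2 lay below 3 of the growing follicles. In pair 2 the array ratio was 0.32 with plateau in Cy5 and -0.0083 with plateau in Cy3. The log2 ratios of the pairs were 0.78, 0.16, 0.85 and 0.71, with a mean of 0.62 ± 0.32 (SD, n = 4 pairs) and a 95% interval of 0.25 to 1.0. This was a fold change of 1.54 with an interval of 1.19 to 2.0. With limma the unadjusted p was 0.00841 and the Benjamini-Hochberg adjusted p 0.999893. The exact sign-flip permutation test gave p = 0.125 (two-sided), the smallest value that 4 pairs allow. The mean ratio was 0.77 on the slide with plateau in Cy5 and 0.48 on the other slide, where the criterion was no longer met. A second SPRY1 probe was also higher in 4 of 4 pair averages, with a mean ratio of 0.17 ± 0.09 (SD, n = 4 pairs). In pair 2 it read 0.28 with plateau in Cy5 and -0.14 with plateau in Cy3. This probe was dim, detected on 7 of 8 arrays in plateau follicles and 5 of 8 in growing follicles. The mean of both probes, 0.40, did not meet the criterion. The criterion was also missed without pair 1 (mean ratio 0.57) and without pair 3 (0.55), and was met without pairs 2 and 3 (0.75).

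**Figure D1:**
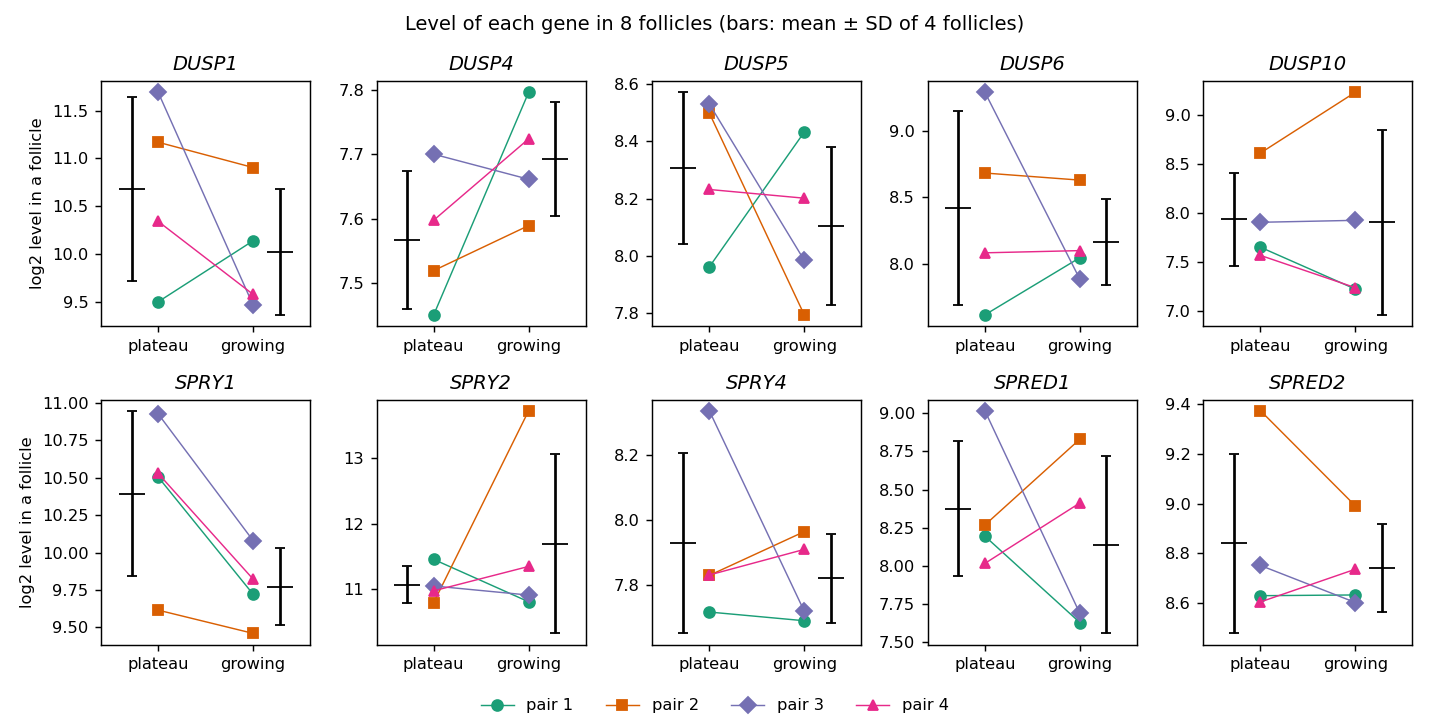
Normalized log2 level of each gene (y axis, own scale in each panel) in plateau follicles (left) and growing follicles (right), with a line joining the follicles of a pair and black bars for the mean ± SD of 4 follicles. SPRY1 is higher in the plateau follicle of every pair, and SPRY2 has a single high follicle, the growing follicle of pair 2 at 13.72.

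DUSP1 is an immediate early phosphatase of the nucleus that acts on p38, JNK and ERK. Its levels were 9.50, 11.17, 11.69 and 10.34 in plateau follicles, against 10.14, 10.90, 9.47 and 9.58 in growing follicles. The plateau follicles of pairs 2 and 3 were highest and the growing follicle of pair 2 came next, so the stages overlapped. The pair ratios were -0.64, 0.26, 2.23 and 0.76, and the mean was 0.65 ± 1.20 (SD, n = 4 pairs) with a 95% interval of -0.59 to 1.90. DUSP1 had the largest mean ratio of the 10 genes in size, but its spread among pairs was wider than the mean (exact sign-flip permutation test, two-sided, p = 0.375). Its fold change of 1.57 exceeded 1.5 and its unadjusted p from limma across all probes was 0.231. Without pair 3 its mean ratio was 0.13, and without pairs 2 and 3 it was 0.063. The raw median intensity of DUSP1 in pair 3 was 3214 in Cy5 and 3481 in Cy3 for the plateau follicle, against 827 in Cy3 and 638 in Cy5 for the growing follicle, so both dye orientations gave the same large difference in this pair.

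DUSP6, a cytoplasmic phosphatase that acts chiefly on ERK and is widely used as a readout of ERK activity, had levels of 7.62, 8.68, 9.29 and 8.08 in plateau follicles and 8.05, 8.63, 7.88 and 8.10 in growing follicles. The plateau follicle of pair 3 stood highest and that of pair 1 lowest, so the plateau stage held both ends of the range. The pair ratios were -0.43, 0.05, 1.41 and -0.02, with a mean of 0.25 ± 0.80 (SD, n = 4 pairs) and a 95% interval of -0.59 to 1.09 (exact sign-flip permutation test, two-sided, p = 0.75). Without pair 3 the mean ratio was -0.13, and without pairs 2 and 3 it was -0.22. DUSP6 was detected on 6 of 8 arrays in plateau follicles and 7 of 8 in growing follicles, so some of its values lay at background.

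DUSP5, a nuclear phosphatase that acts on ERK, had levels of 7.96, 8.50, 8.53 and 8.23 in plateau follicles and 8.43, 7.79, 7.98 and 8.20 in growing follicles. Pairs 2 and 3 were higher in the plateau follicle by 0.70 and 0.55, pair 1 was lower at -0.47 and pair 4 lay at 0.03. The mean was 0.20 ± 0.53 (SD, n = 4 pairs, 95% interval -0.38 to 0.78), and -0.22 without pairs 2 and 3. DUSP4, another nuclear phosphatase of ERK, was not well above background on any array in plateau follicles and was detected on 2 of 8 in growing follicles. Its measured levels were 7.45, 7.52, 7.70 and 7.60 in plateau follicles and 7.80, 7.59, 7.66 and 7.72 in growing follicles. Its values thus lay mostly at background in both stages, and no fold change is given for it.

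DUSP10 acts on p38 and JNK rather than on ERK. Its levels were 7.65, 8.61, 7.91 and 7.57 in plateau follicles, against 7.23, 9.23, 7.93 and 7.24 in growing follicles. Both follicles of pair 2 were the highest of their stage, and the mean ratio was 0.03 ± 0.47 (SD, n = 4 pairs, 95% interval -0.49 to 0.55). Without pairs 2 and 3 it was 0.38. In either stage its brightest probe was detected on 4 of the 8 arrays. The 3 other DUSP10 probes were dim, with mean ratios of 0.00, 0.05 and -0.14.

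**Figure D2:**
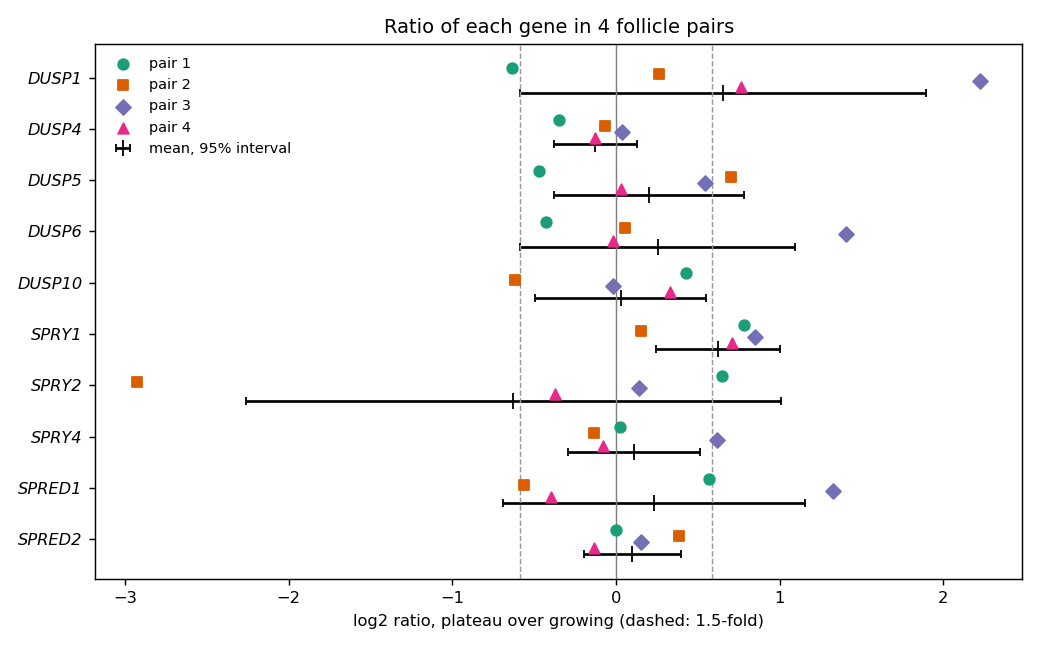
Log2 ratio of plateau over growing (x axis) of each gene (y axis) in 4 follicle pairs, with the mean and its 95% interval from limma in black and dashed lines at a 1.5-fold change. The interval of SPRY1, 0.25 to 1.0, is the only 1 that leaves out 0, and pair 3 has the highest ratio for DUSP1, DUSP4, DUSP6, SPRY1, SPRY4 and SPRED1. The values of DUSP4 lay mostly at background.

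SPRY2, a sprouty protein that is induced by growth factors, was set apart by 1 follicle. Its levels were 11.45, 10.80, 11.05 and 10.97 in plateau follicles, against 10.81, 13.72, 10.91 and 11.35 in growing follicles. The growing follicle of pair 2 was above all others and the remaining 7 lay between 10.80 and 11.45. Its raw intensities were 14861 in Cy3 and 12398 in Cy5, against 1728 in Cy5 and 1948 in Cy3 for the plateau follicle of the same pair, so both arrays read the difference. The mean ratio was -0.63 ± 1.59 (SD, n = 4 pairs, 95% interval -2.26 to 1.01), and without pair 2 it was 0.14. SPRY4, a further sprouty gene that responds to ERK, had levels of 7.72, 7.83, 8.34 and 7.83 in plateau follicles and 7.69, 7.96, 7.72 and 7.91 in growing follicles. The plateau follicle of pair 3 was highest, the rest lay close together, and the mean ratio was 0.11 ± 0.35 (SD, n = 4 pairs), or -0.062 without pair 3 and -0.026 without pairs 2 and 3. In pair 3 the array ratio of SPRY4 was 0.26 with plateau in Cy5 and 0.97 with plateau in Cy3. SPRY4 was detected on 5 of 8 arrays in plateau follicles and 3 of 8 in growing follicles.

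SPRED1 and SPRED2 encode membrane proteins that hold back the activation of RAF by RAS. SPRED1 had levels of 8.19, 8.27, 9.02 and 8.02 in plateau follicles, against 7.63, 8.83, 7.69 and 8.41 in growing follicles. Pairs 1 and 3 were higher in the plateau follicle and pairs 2 and 4 lower, and the mean ratio of 0.23 ± 0.88 (SD, n = 4 pairs) was -0.13 without pair 3 and 0.085 without pairs 2 and 3. The brightest SPRED1 probe was detected on 8 of 8 arrays in plateau follicles and 5 of 8 in growing follicles. The 2 other SPRED1 probes had mean ratios of -0.01 and 0.08. SPRED2, which was detected on every array, had levels of 8.63, 9.37, 8.75 and 8.60 in plateau follicles and 8.63, 8.99, 8.60 and 8.74 in growing follicles. Both follicles of pair 2 were the highest of their stage, and the mean ratio was 0.10 ± 0.22 (SD, n = 4 pairs, 95% interval -0.20 to 0.40), or -0.068 without pairs 2 and 3.

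As a group, 8 of the 10 genes had a mean ratio above 0 and 2 below, with a median ratio of 0.16, where 51.1% of the named genes were above 0 and their median was 0.00. The direction was set by pair 3. In that pair 9 of the 10 genes were higher in the plateau follicle, with a median ratio of 0.58, while 49.9% of named genes were higher with a median of 0.00. These 9 included DUSP4, whose values lay mostly at background. In pairs 1, 2 and 4 the plateau follicle was higher for 5, 5 and 4 of the 10 genes. For 9 of the 10 genes the SD among pairs was wider than the mean ratio in size. The median SD among pairs was 0.50 for the 10 genes and 0.33 for the named genes. The median ratio in size was 0.22 for the 10 genes and 0.11 for the named genes, so it was under the median SD in both. The share of named genes with an SD wider than the mean was not counted. The difference that a dye swap made to a ratio, divided by 2, was 0.16 in the median of the 10 genes and 0.14 in that of the named genes.

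**Figure D3:**
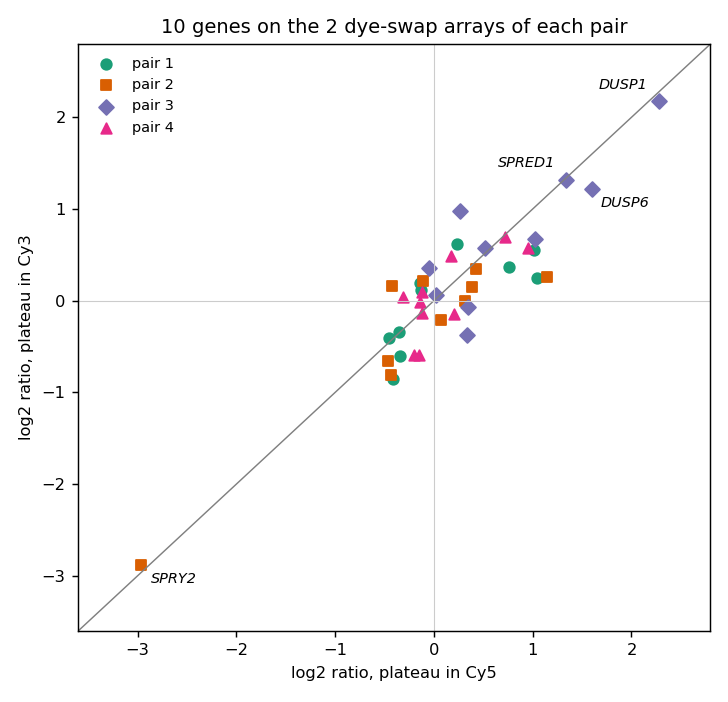
Log2 ratio of plateau over growing of each gene in each pair on the array with plateau in Cy5 (x axis) and on its dye-swap array with plateau in Cy3 (y axis), with the line of equality. The ratios of SPRY2 in pair 2 and of DUSP1 and SPRED1 in pair 3 lie near the line, while DUSP5 in pair 2 (1.15 and 0.26) and SPRY2 in pair 1 (1.05 and 0.25) lie well below it.

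Over the 8 follicles DUSP6 was compared with each of the 9 other genes, with p-values adjusted over these 9 relations. DUSP1 followed it most closely, with Pearson r = 0.94 (exact permutation test, two-sided, p = 0.00119, Benjamini-Hochberg adjusted 0.0107) and Spearman rho = 0.90 (exact permutation p = 0.00456, adjusted 0.0411). The Pearson r was 0.95 with the stage means removed, 0.90 on the slide with plateau in Cy5 and 0.95 on the other slide. Without the plateau follicles of pairs 2 and 3, the farthest from the median of DUSP6, it was 0.85. That check kept the growing follicle of pair 2, which was also high in DUSP6 (8.63) and DUSP1 (10.90). SPRY4 had r = 0.87 (exact permutation p = 0.0123, adjusted 0.0551) and rho = 0.79 (exact permutation p = 0.0279, adjusted 0.0827), and SPRED1 had r = 0.75 (exact permutation p = 0.0382, adjusted 0.115) and rho = 0.76 (exact permutation p = 0.0368, adjusted 0.0827), neither of which passed after adjustment. Without the same 2 follicles their r was 0.79 and 0.61. SPRED2 had r = 0.52 (exact permutation p = 0.274, adjusted 0.411) and rho = 0.81 (exact permutation p = 0.0218, adjusted 0.0827), and its r was 0.85 without the 2 follicles. DUSP5 and DUSP10 both had r = 0.48 (exact permutation p = 0.222 and 0.259, both 0.411 adjusted), which was -0.24 for DUSP5 and 0.68 for DUSP10 without the 2 follicles. SPRY1 had r = 0.11, SPRY2 0.16 and DUSP4 0.16 (exact permutation p = 0.776, 0.666 and 0.714, each 0.776 adjusted). Without the 2 follicles these were -0.74, 0.75 and 0.26, so r of SPRY1 and SPRY2 changed widely with the follicles left out. Of the follicles that remained, the growing follicle of pair 2 was highest in DUSP6, at 8.63. It also held the single high SPRY2 level of 13.72, and no r was computed without it. Both follicles of a pair were read on the same arrays, and both follicles of pair 2 were high in DUSP1 and DUSP6. The permutations exchanged all 8 follicles freely, so the p-values take no account of the pairs.

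The 3 follicles highest in both DUSP1 and DUSP6, the plateau follicles of pairs 2 and 3 and the growing follicle of pair 2, were also the 3 lowest in the median of the granulosa cell markers, at 9.77, 9.00 and 10.84. By the summed level of those markers the growing follicle of pair 2, at 17.15, was above the growing follicle of pair 1, at 16.49, so its rank rests on the median. The same 3 follicles were the 3 highest in the median of the smooth muscle and fibroblast markers, at 9.32, 11.78 and 9.87, and of 12 leukocyte markers, at 8.32, 8.53 and 8.03. The part of the marker levels in this relation was not tested.

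**Figure D4:**
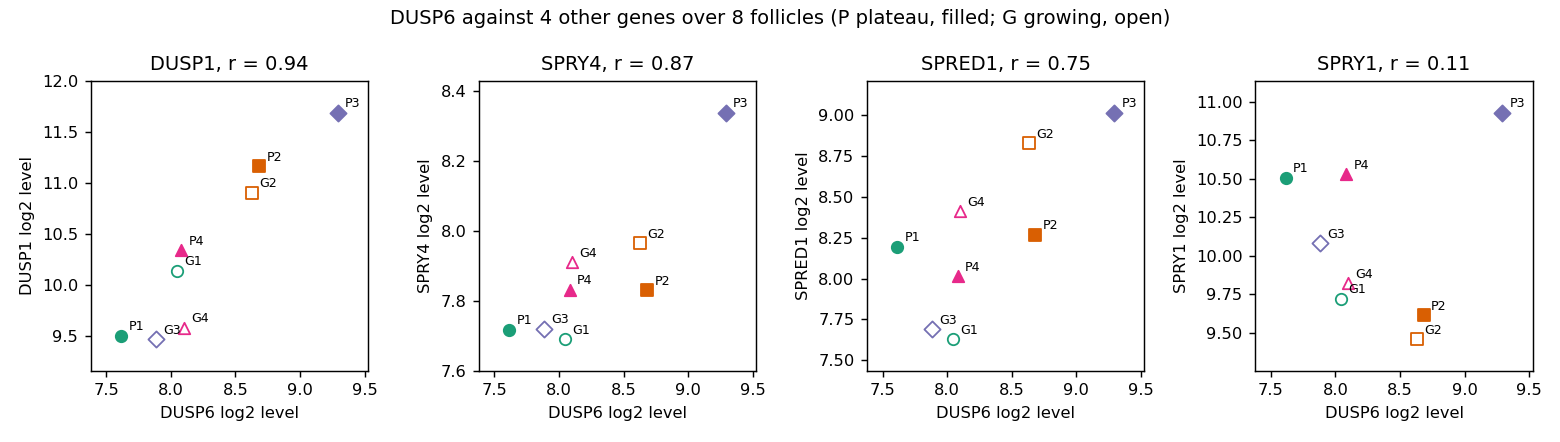
Log2 level of DUSP1, SPRY4, SPRED1 and SPRY1 (y axes) against that of DUSP6 (x axes) in 4 plateau follicles (P, filled) and 4 growing follicles (G, open), where the number is the pair. DUSP1 follows DUSP6 with r = 0.94, and SPRY1 shows r = 0.11, or -0.74 without P2 and P3.

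The genes whose levels were most like those of DUSP6 over the 8 follicles, among 10149 other genes whose log2 intensity averaged 8 or more, were EFNA1, VPS36, CFL1, ANXA1 and GLMN, with Pearson r of 0.96 to 0.97. EFNA1 encodes an ephrin ligand, CFL1 the actin-severing protein cofilin and ANXA1 a phospholipid-binding annexin. For DUSP1 they were PPP2R3A, LYN, LAPTM5, MCL1 and SLCO2B1, also with r of 0.96 to 0.97. LYN is a kinase and LAPTM5 a lysosomal protein of leukocytes, and MCL1 is a survival protein of the BCL2 family. These values describe 8 follicles and were chosen as the highest of many. The median of 12 leukocyte markers was 7.76, 8.32, 8.53 and 7.98 in plateau follicles and 7.83, 8.03, 7.83 and 7.75 in growing follicles, so it too was highest in the plateau follicles of pairs 2 and 3. Of these markers 10 of 12 had a mean ratio above 0, where 51.1% of named genes had, and by pair 4, 8, 10 and 9 were higher in the plateau follicle. The log2 of their summed linear levels ranged over 11.35 to 12.89 in plateau follicles and 11.37 to 11.60 in growing follicles. LYZ, which encodes lysozyme, was at the criterion with a measured mean ratio of 0.61 ± 0.42 (SD, n = 4 pairs), but was detected on 5 of 8 arrays in plateau follicles and 1 of 8 in growing follicles, so its level in growing follicles lay mostly at background. The part of leukocyte markers in the likeness to DUSP1 was not tested.

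The rest of the pathway was described by counts, with 1.03% of named genes at the criterion as the background. No gene at the criterion was found among 14 receptor tyrosine kinases, 12 adaptors, exchange factors and RAS genes, 10 RAF, MEK and ERK kinases and scaffolds, 14 effector kinases and ETS factors, 16 other feedback genes, 12 p38 and JNK kinases or 14 ERK ligands of the follicle. The median ratios of these lists lay between -0.03 and 0.04. PDGFRA, a receptor of mesenchymal cells, had pair ratios of -1.32, -0.49, 5.58 and 0.52, the outstanding value again being that of pair 3. Of its 2 other probes, 1 had a mean ratio of the opposite sign. KDR had the largest mean ratio in size of these receptors, at -1.08, with pair ratios of -2.86, -2.26, 1.30 and -0.50. It was detected on 5 of 8 arrays in plateau follicles and 4 of 8 in growing follicles. RASA1, which switches RAS off, had pair ratios of 0.03, 0.53, 0.78 and 0.28 and a mean of 0.41 ± 0.32 (SD, n = 4 pairs), under the fold change of the criterion, and its other probe had a mean ratio of -0.044. PHLDA1, a growth factor-induced gene of the same list, had pair ratios of -0.22, -2.35, 0.76 and -0.09 and a mean of -0.48 ± 1.32 (SD, n = 4 pairs).

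The 14 immediate early genes of ERK and SRF had none at the criterion, but 13 of 14 had a mean ratio above 0, with a median of 0.86, where 51.1% of named genes were above 0. Their median ratio by pair was -0.60, 2.16, 1.41 and 0.03, so pairs 2 and 3 set it. CCN1, a secreted matrix protein, had pair ratios of -1.28, 3.20, 4.46 and 1.34, the nuclear receptor NR4A1 -1.19, 4.10, 1.35 and 2.18, and IER3, an early response gene, -0.59, 2.74, 2.92 and 1.19. All 3 were lower in the plateau follicle of pair 1 and higher in that of the other pairs, as was DUSP1. FOS, the 1 gene of the list below 0, had pair ratios of -1.33, -0.69, 1.14 and -0.87. Its other probe had a mean ratio of the opposite sign. The median level of the list was 9.29, 11.94, 11.04 and 9.00 in plateau follicles and 10.32, 9.65, 8.82 and 8.93 in growing follicles, highest in the same plateau follicles of pairs 2 and 3 that were low in granulosa cell markers, and the part of those markers was not tested.

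**Figure D5:**
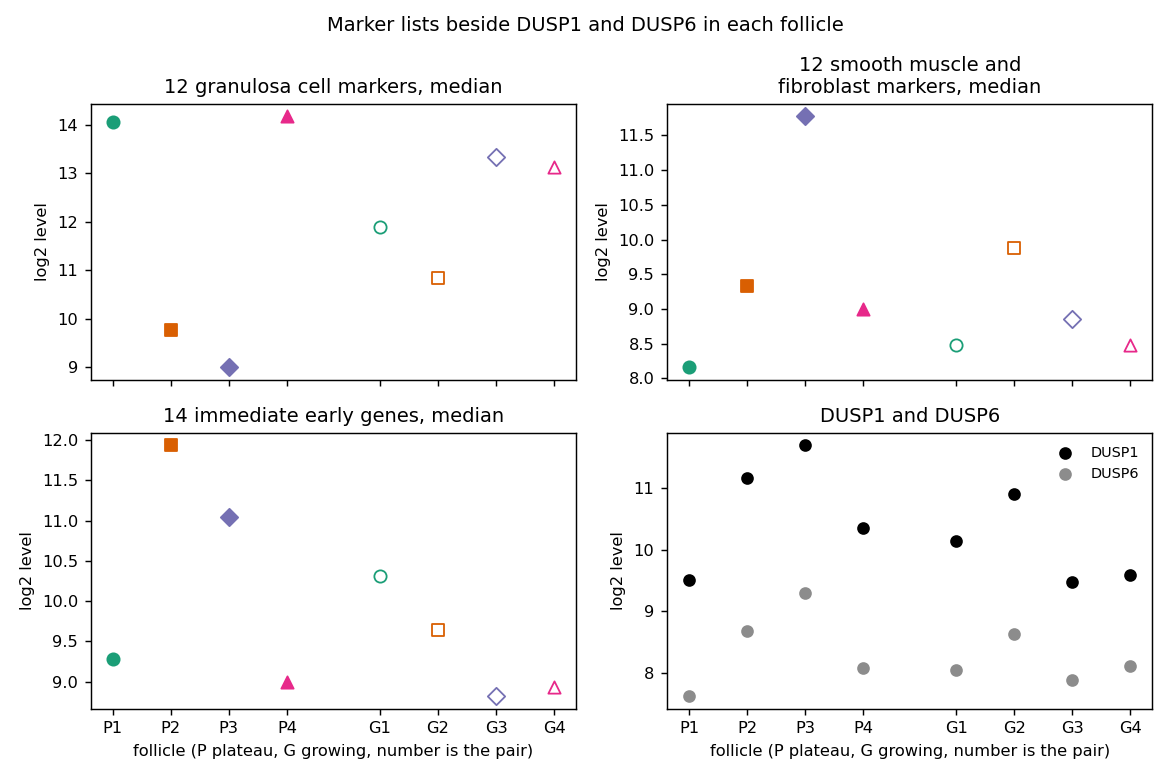
Median log2 level of 12 granulosa cell markers, 12 smooth muscle and fibroblast markers and 14 immediate early genes, and the log2 levels of DUSP1 and DUSP6 (y axes), in plateau follicles (P) and growing follicles (G), where the number is the pair (x axis). The plateau follicles of pairs 2 and 3 are low in granulosa cell markers (9.77 and 9.00) and high in DUSP1 (11.17 and 11.69).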

How the data were processed

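The deposited files held the spot and local background intensity of each dye as scanned. On each array the authors had marked 12 to 30 spots as unusable, none of them on these genes. The authors' deposited series table held background-corrected, normalized log2 ratios of Cy5 over Cy3 and served as an alternative. After normexp background correction (offset 50), median intensities underwent within-array loess and between-array quantile normalization and were averaged over the dye-swap arrays of a pair with limma 3.58.1 in R 4.3.3. For each probe, lmFit and eBayes compared the pair averages with 0, with Benjamini-Hochberg adjustment over 43794 probes, and relations were tested in Python 3.11.15 with SciPy 1.17.1. Arrays at the same slide position were taken as a pair: their deviations from the slide mean correlated at 0.756 to 0.875 across probes, against -0.436 to -0.124 for other positions. The labels do not say whether follicles came from separate animals, so p-values measure the spread between these samples. The number of arrays limits the precision. The steps were tested on simulated data with known changes.

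The genes and lists were chosen with earlier results of these data known. Every one of the 10 genes was named, and of other lists the genes at the criterion and at most 3 with the largest ratios whose log2 intensity averaged 8 or more. For DUSP6, and for the gene with the largest mean ratio, the 5 most similar genes were named. RASA1 and PHLDA1 were among those 3, and CYP19A1, FSHR, INHA, AMH, COL1A2 and FOS were named after their values were seen. Alternatives covered background correction, normalization, dye, slide, intensity, probe choice and left-out pairs.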

Additional observations from a re-analysis of the deposited data

How the results depend on the processing

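With each pair left out in turn, the count of probes at the criterion was 338 to 1538 against 297, that of feedback genes at the criterion 0 to 1 against 1, and that of feedback genes with 1 direction in all remaining pairs 1 to 3 against 1, where 17.9% to 25.3% of named genes had 1 direction in 3 pairs. SPRY1 stayed higher in plateau follicles under every alternative run, at 0.40 to 0.77 for other settings and 0.55 to 0.78 with a pair left out, but missed the criterion without pair 1 (0.57) and without pair 3 (0.55), in the mean of its probes (0.40) and within the slide with plateau in Cy3 (0.48), so 0 of the genes met it in those settings. The ratio turned below 0 for DUSP10 with loess alone (-0.038), with plateau in Cy3 (-0.019) and in the mean of its probes (-0.015). It did so with plateau in Cy5 for SPRY4 (-0.11) and SPRED2 (-0.015). With a pair left out, the ratio crossed 0 for DUSP10 (-0.10 to 0.25, below 0 without pair 1 or 4), for DUSP6 (-0.13 to 0.48), SPRY4 (-0.062 to 0.19) and SPRED1 (-0.13 to 0.50), all below 0 without pair 3, and for SPRY2 (-1.05 to 0.14), above 0 without pair 2. The count of probes at the criterion was 714 with 8 arrays taken as independent and no replicate block, where 0 of the 10 feedback genes had 1 direction on all arrays, and 673 with the pair as a random replicate block and a dye term. It was 1049 within the slide with plateau in Cy5 and 851 within the other. Without pairs 2 and 3, an alternative chosen after seeing the data, it was 1370, and 5 of the 10 feedback genes had 1 direction in the pairs that remained, as had 48.6% of named genes. The ratios of DUSP5 (-0.22), DUSP6 (-0.22), SPRY4 (-0.026) and SPRED2 (-0.068) then turned below 0 and that of SPRY2 above it (0.14). The causes of these changes were not tested. Dim probes limited DUSP4, DUSP10 and SPRY4, which lay at or near background on many arrays. SPRED1 was limited in growing follicles, where it was detected on 5 of 8 arrays.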
